A study of Mus musculus with 6 samples.

Results

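The genes examined here are those of the semaphorins and of their receptors, the plexins and neuropilins. They were chosen by symbol from the deposited table of counts: Sema followed by 3 to 7 and a letter from a to g, Plxn followed by a to d and a number from 1 to 4, and Nrp1 and Nrp2. This gave 31 of the 55416 genes in the table, of which 20 encode semaphorins, 9 plexins and 2 neuropilins. RNA was sequenced from ganglionic eminences of E13.5 (embryonic day) mouse embryos. These are the swellings of the ventral forebrain that produce striatal neurons and cortical interneurons. In one group, 3 libraries came from animals without Dlx1 and Dlx2, which encode homeodomain transcription factors, and 3 came from wild-type littermates. The labels give no strain, allele, dissection boundary or sex, and whole tissue was used, so a lower level of an RNA can mean fewer cells of a type or less RNA per cell, and these cannot be told apart. They also do not say whether each library came from a different embryo, or which libraries share a litter, so p-values measure only the spread between these libraries.

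Semaphorins are guidance cues for growing axons and migrating neurons. Class 3 semaphorins are secreted, classes 4 to 6 span the membrane, and Sema7a is held at the surface by a lipid anchor. Plexins pass the signal into the cell through small GTPases. Most class 3 ligands bind a neuropilin first, and the neuropilin then works together with an A-type plexin or Plxnd1. In the developing forebrain this system is known for steering cortical interneurons around the striatum and for guiding thalamic, striatal and cortical axons.

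All libraries had between 56618090 and 70114173 counts, of which 0.345% to 0.392% fell on the 31 genes. Levels are given as CPM (read counts relative to library size, with TMM scaling, which uses a trimmed mean of log ratios between libraries), and a count of 3 corresponded to 0.0428 to 0.053 CPM, a floor that covers counting error only. Dlx1 was at 18.6% and Dlx2 at 2.94% of the wild-type mean in the double knockout, and no library went against its label. Of the 10 markers of ganglionic eminence checked, none was absent from the tissue, and 7 were called. Lower in the double knockout were Gad1 (119.6 to 43.1 CPM), Gad2 (322.6 to 124.4 CPM), Ebf1 (130.6 to 44.6 CPM) and Lhx6 (172.0 to 96.6 CPM). Gsx2 (23.5 to 36.6 CPM), Nkx2-1 (128.0 to 192.9 CPM) and Isl1 (61.6 to 94.6 CPM) were higher. Their part in the values of the 31 genes was not tested. Double knockout replicate 3 stood apart from the other libraries of its genotype. Its chi-square statistic per gene against them was 30.4 and 37.1, while double knockout replicates 1 and 2 differed from each other by 13.4 and the wild-type libraries by 20.9 to 22.2. Log2 fold changes with and without it are given for Sema4a, Sema4f, Sema5a, Sema6a, Sema6b, Sema6d, Plxna1, Plxna2, Plxnc1 and Nrp2. Those of other members are given with it only.

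Of the 31 genes, 8 were called different between the genotypes. The call rests on the quasi-likelihood test of edgeR and needs an adjusted p (Benjamini-Hochberg, over all 23628 tested genes) under 0.05. That is 25.8% of the members, where 2.68% of all tested genes were called. The 6 that fell in the double knockout were Sema3a, Sema3c, Sema6c, Sema7a, Plxna2 and Plxna4, and the 2 that rose were Sema3e and Nrp1. In each direction the share over all tested genes was 1.34%. All 31 passed the filter on low counts, so no member was left out. The groups did not overlap for 15 members (48.4%), against 19.5% of all tested genes. Of these, 5 were higher in the double knockout and 10 lower, against 9.3% and 10.2% of all tested genes. Ligands and receptors were called at like shares, 5 of 20 (25%) and 3 of 11 (27.3%). The median log2 fold change was -0.10 over the ligands, -0.04 over the receptors and -0.0016 over all tested genes. Changes were moderate in size, from -0.72 to 0.80 on the log2 scale.

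**Figure D1:**
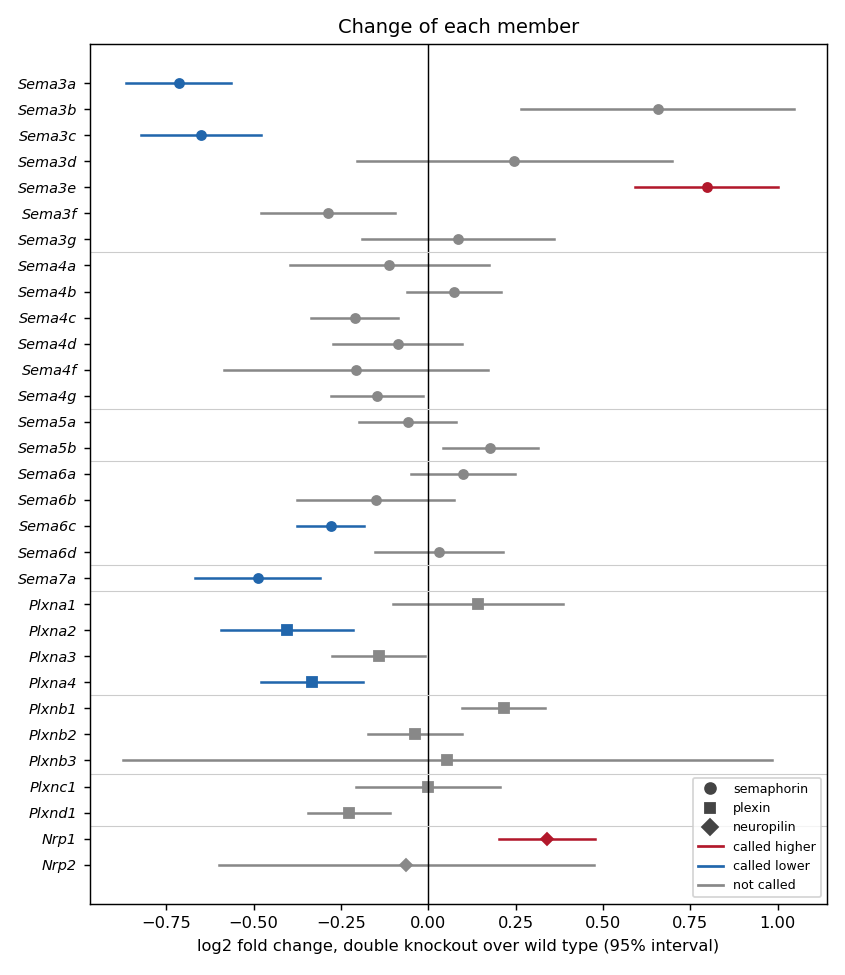
Log2 fold change (double knockout over wild type, x axis) of each of the 31 genes with its 95% interval from the edgeR fit of 3 against 3 libraries; circles are semaphorins, squares plexins, diamonds neuropilins, and colour marks the call. The largest changes, -0.72 for Sema3a and 0.80 for Sema3e, are both in class 3, and the widest intervals are those of Plxnb3, which has few reads, and of Nrp2, whose double knockout libraries disagree.

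The strongest changes lay among the secreted class 3 ligands, and they went in opposite directions. Sema3a and Sema3c fell, and Sema3e rose. Sema3a and Sema3e are near neighbours in the RefSeq gene order of the mouse genome, with 3 other protein-coding genes between them, and Sema3d lies next to Sema3a. The 150 bases that precede the annotated start of each of the 3 called genes are shown because they differ widely in CG content. They come from RefSeq (build GRCm38.p6, plus strand in all 3 cases), and capitals mark CG dinucleotides.
Sema3a, chr5:13396634-13396783: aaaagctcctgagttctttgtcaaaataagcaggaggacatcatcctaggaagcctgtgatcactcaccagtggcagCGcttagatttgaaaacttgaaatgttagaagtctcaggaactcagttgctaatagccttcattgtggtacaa
Sema3c, chr5:17574666-17574815: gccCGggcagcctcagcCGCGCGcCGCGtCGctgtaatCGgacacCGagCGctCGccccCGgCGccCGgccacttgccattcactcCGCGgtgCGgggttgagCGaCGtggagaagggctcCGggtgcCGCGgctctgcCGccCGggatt
Sema3e, chr5:14025126-14025275: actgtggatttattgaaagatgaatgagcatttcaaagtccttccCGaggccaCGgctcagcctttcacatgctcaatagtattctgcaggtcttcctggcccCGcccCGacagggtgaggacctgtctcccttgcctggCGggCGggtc
There was 1 CG dinucleotide before Sema3a, 6 before Sema3e and 24 before Sema3c, so the 2 genes that fell had the least and the most of the 3. The motif TAATTA, a core that homeodomain proteins bind (its own reverse complement, so both strands were read), was searched in windows from 250 bases before to 50 bases after annotated starts. RefSeq windows were found for 26 of the 31 members, 37 windows in all, and none held TAATTA, while 5.29% of all 32851 windows did. At that share few of 37 windows would hold it, so the members cannot be told apart from all windows. The called gene Plxna4 had no window. The median GC content was 63.7% in the members' windows and 52.7% in all windows. These letters are a description of the windows only.

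Sema3a (ENSMUSG00000028883), the class's best known repellent of axons, was at 83.7, 85.8 and 79.4 CPM in wild-type replicates 1 to 3 and at 52.1, 53.3 and 46.1 CPM in double knockout replicates 1 to 3. Every double knockout library lay well below every wild-type one. The level was 60.9% of the wild-type mean, a change of -0.72 on the log2 scale (SE 0.0659, edgeR adjusted p = 8.61e-04). Sema3c (ENSMUSG00000028780), which can attract cortical axons, was at 64.0, 63.6 and 56.9 CPM in the wild type and at 40.8, 40.9 and 35.7 CPM in the double knockout. The pattern over libraries matched that of Sema3a, with double knockout replicate 3 lowest. On the log2 scale the change was -0.65 (SE 0.0752, edgeR adjusted p = 0.00268).

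Sema3e (ENSMUSG00000063531) is unusual in its class, since it binds Plxnd1 without a neuropilin. It was at 9.91, 9.26 and 8.71 CPM in the wild type and at 15.3, 15.9 and 17.3 CPM in the double knockout. The groups were far apart, and double knockout replicate 3 was highest. This gave a log2 fold change of 0.80 (SE 0.0899, edgeR adjusted p = 0.00235). These 3 class 3 genes were the members that stayed called in all 14 alternative fits, which comprised other scalings, filters and tests, a replicate block, a covariate and the removal of each library.

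The balance of the class shifted accordingly. Levels of different genes were compared per kilobase (kb) of exon, with exon lengths from GENCODE M21. Sema3a was 5.98 ± 0.295 times as abundant as Sema3e in the wild type (SD, n = 3) and 2.11 ± 0.277 times in the double knockout (SD, n = 3). For Sema3c the ratio to Sema3e went from 8.60 ± 0.287 to 3.17 ± 0.425. Sema3e thus held 4.26% ± 0.0894 of the class 3 level per kb in the wild type and 9.77% ± 1.08 in the double knockout. Sema3c was the most abundant of the class in the wild type, at 36.6% ± 0.813, and Sema3f followed at 28.0% ± 1.30. In the double knockout these held 30.7% ± 1.21 and 30.2% ± 1.39, which overlap within their spread.

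The other 4 class 3 genes were not called. Sema3f (ENSMUSG00000034684), a ligand of Nrp2, was at 37.3, 33.0 and 32.5 CPM in the wild type and 30.7, 27.1 and 26.3 CPM in the double knockout. The groups did not overlap, but the log2 fold change of -0.29 (95% interval -0.48 to -0.10) had an adjusted p of 0.153 in edgeR. Sema3b (ENSMUSG00000057969) was at 1.59, 1.77 and 1.45 CPM against 2.48, 2.17 and 2.93 CPM. Its log2 fold change of 0.66 (SE 0.171) was nearly as large as that of Sema3e, but the gene has few reads and its adjusted p was 0.103 in edgeR. DESeq2 called it, at an adjusted p of 0.044. Sema3d and Sema3g, at wild-type means of 1.41 ± 0.216 and 3.69 ± 0.198 CPM (SD, n = 3), overlapped between the genotypes. Their log2 fold changes were 0.25 and 0.09.

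**Figure D2:**
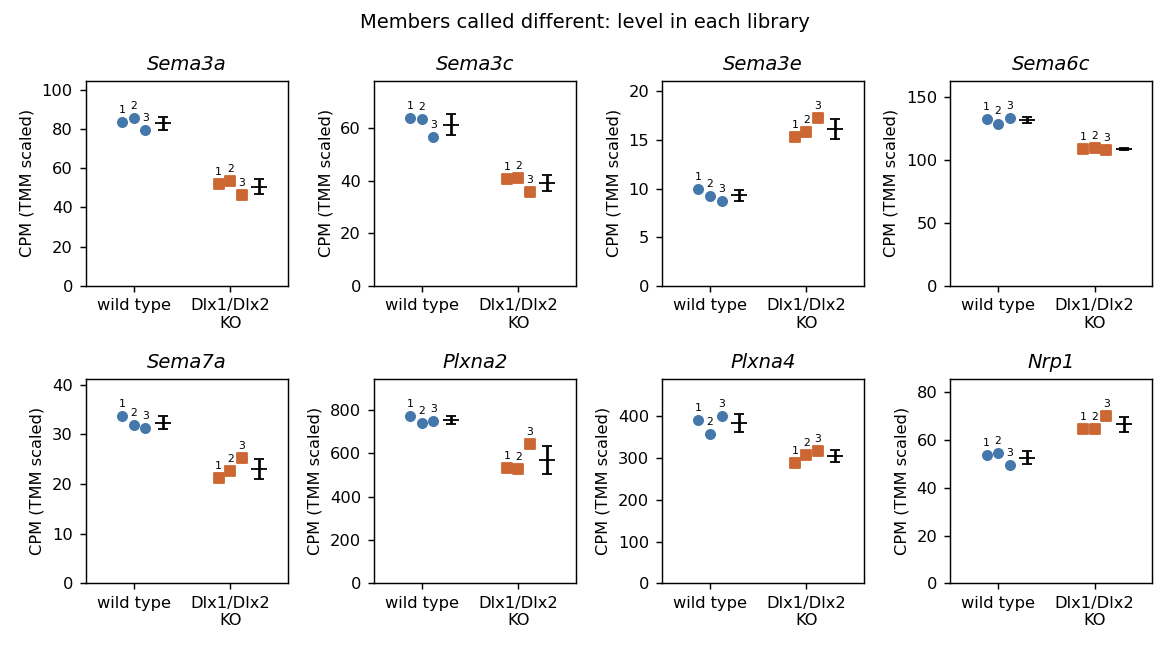
Level in CPM (TMM scaled, y axis from 0) of the 8 called genes in each library; numbers are replicate numbers, and bars give the mean and SD of 3 libraries. The groups are separate in every panel. Double knockout replicate 3 is the outermost of its group for Sema3a, Sema3c, Sema3e, Nrp1 and, only just, Sema6c. It is the closest of its group to the wild type for Sema7a, Plxna2 and Plxna4.

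Of the 13 membrane-bound ligands of classes 4 to 7, 2 were called (15.4%, against 2.68% of all tested genes), both lower, and these were Sema6c and Sema7a. None of the 6 class 4 genes or the 2 class 5 genes was called. An unadjusted p under 0.05 was found for 2 of the 6 and 1 of the 2, against 13.3% of all tested genes. Class 4 semaphorins bind B-type plexins and act in neurons and immune cells. Sema4c and Sema4g are the most abundant of them, at 81.3 ± 3.11 and 94.4 ± 2.5 CPM in the wild type and 70.3 ± 3.51 and 85.3 ± 5.82 CPM in the double knockout (SD, n = 3 each). By library, Sema4g was at 97.1, 92.1 and 94.2 CPM in the wild type and 91.5, 84.5 and 79.9 CPM in the double knockout. The groups did not overlap for either gene, with log2 fold changes of -0.21 and -0.15 and adjusted p of 0.102 and 0.309 in edgeR. Sema4c shares 7.27% of its exon bases with a gene on the opposite strand, and the strand setting of the counting is not given, so its counts are uncertain. Sema4a, Sema4b, Sema4d and Sema4f had wild-type means of 14.2 to 40.7 CPM, overlapped between genotypes, and had log2 fold changes from -0.21 to 0.07. The lowest was that of Sema4f (edgeR adjusted p = 0.693), which was -0.04 without double knockout replicate 3 (adjusted p = 0.938). For Sema4a the log2 fold change was -0.11 with that library and 0.03 without it (edgeR adjusted p = 0.806 and 0.927).

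In class 5, whose members carry thrombospondin repeats, neither gene was called. Sema5b was at 77.8, 82.2 and 79.4 CPM in the wild type and 89.5, 84.0 and 96.9 CPM in the double knockout. The groups were separate, with a log2 fold change of 0.18 and an adjusted p of 0.223 in edgeR. Sema5a was at 159.9, 168.0 and 168.3 CPM in the wild type and 152.9, 150.8 and 172.5 CPM in the double knockout, and its groups overlapped.

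Class 6 had the highest summed level per kb of the ligand classes. These proteins act through A-type plexins, and can also signal backwards into the cell that carries them. Sema6c (ENSMUSG00000038777) was the highest of all ligands in the wild type, at 22.2 ± 0.409 CPM per kb (SD, n = 3). In the double knockout it was at 18.3 ± 0.119 CPM per kb. There it could not be ordered within the spread against Sema6a, at 17.5 ± 1.33, and Sema6d, at 17.4 ± 2.05. In CPM Sema6c was at 133.1, 129.1 and 133.6 in the wild type and at 108.7, 109.3 and 107.9 in the double knockout. The libraries of each genotype lay very close together, and the fall was small but separate. The fitted log2 fold change was -0.28 (SE 0.0415, edgeR adjusted p = 0.00954). Sema6d, with the most reads of the class, was at 184.3, 181.4 and 174.1 CPM in the wild type and 185.5, 161.3 and 204.5 CPM in the double knockout. Sema6a, Sema6b and Sema6d overlapped between the genotypes, with log2 fold changes of 0.10, -0.15 and 0.03, and their 95% intervals reached from -0.38 to 0.25. Without double knockout replicate 3 their log2 fold changes were 0.16, -0.05 and -0.05, and none was called in edgeR. Whether Sema6c differs in its change from these genes was not tested.

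Sema7a (ENSMUSG00000038264), which promotes axon growth through integrins and also binds Plxnc1, was at 33.8, 31.9 and 31.3 CPM in the wild type and at 21.3, 22.7 and 25.2 CPM in the double knockout. All double knockout libraries were lower. The fit gave -0.49 on the log2 scale (SE 0.0783, edgeR adjusted p = 0.0141). Its receptor gene Plxnc1 was at 127.7, 113.7 and 128.8 CPM in the wild type and 130.2, 133.6 and 106.4 CPM in the double knockout. The groups overlapped, and the 95% interval of its log2 fold change was -0.21 to 0.20.

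The A-type plexins had the highest summed level of the receptor classes, and 2 of the 4 fell. These proteins transduce class 3 signals together with neuropilins and bind class 6 ligands directly. Plxna2 (ENSMUSG00000026640) had the highest level of all 31 genes in the wild type, at 43.9 ± 1.03 CPM per kb (SD, n = 3). Its CPM were 774.2, 740.5 and 748.2 in the wild type and 534.8, 528.3 and 645.5 in the double knockout. Replicate 3 of the double knockout lay between its other libraries and the wild type. On the log2 scale the change was -0.41 (SE 0.083, edgeR adjusted p = 0.0413). It was -0.50 without double knockout replicate 3, and the call was kept. The call was lost when any other library was left out (edgeR adjusted p from 0.11 to 0.17). In the double knockout Plxnb2, at 34.4 ± 1.95 CPM per kb, and Plxna2, at 33.2 ± 3.84, could not be ordered within their spread.

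Plxna4 (ENSMUSG00000029765) was at 389.3, 357.5 and 400.3 CPM in the wild type and at 287.6, 306.4 and 316.9 CPM in the double knockout. The groups were separate. Of its exon bases, 0.78% are shared with an opposite-strand gene. This gave a log2 fold change of -0.33 (SE 0.0639, edgeR adjusted p = 0.0318). Plxna1 and Plxna3 were not called. Plxna3 was at 179.9 ± 11.3 and 163.0 ± 6.37 CPM (SD, n = 3). Plxna1 was at 259.1, 233.2 and 281.6 CPM in the wild type and 305.4, 309.0 and 239.3 CPM in the double knockout. Double knockout replicates 1 and 2 were above all wild-type libraries, and replicate 3 was within their range. The log2 fold change was 0.14 (edgeR adjusted p = 0.67) and, without that library, 0.26 (adjusted p = 0.134). Of its exon bases, 10.7% are shared with an opposite-strand gene, and its counts are uncertain.

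Among the other plexins none was called in edgeR. Plxnb1, a receptor for Sema4d, was at 253.1, 238.6 and 261.5 CPM in the wild type and 289.0, 289.2 and 296.3 CPM in the double knockout. The groups did not overlap, and the log2 fold change was 0.22 (SE 0.0522). Its adjusted p in edgeR was 0.0801, and ranged from 0.0173 to 0.265 over the 14 alternatives, with 4 of them calling it. An opposite-strand gene overlaps 2.68% of its exon bases. Plxnd1, the receptor for Sema3e and a known gene of vessels as well as neurons, was at 108.7, 104.0 and 102.7 CPM against 85.2, 93.6 and 90.5 CPM. It too was separate between groups, and lower, with a log2 fold change of -0.23 (95% interval -0.35 to -0.11) and an adjusted p of 0.0601 in edgeR. Plxnb2 was at 279.5, 260.2 and 277.1 CPM in the wild type and 252.3, 261.6 and 281.7 CPM in the double knockout, and its groups overlapped. Plxnb3 was barely detected, with 8 to 13 reads per library. The 95% interval of its log2 fold change was -0.87 to 0.98, so these counts are compatible with any change within that range.

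Of the 2 neuropilins, Nrp1 rose and Nrp2 was not called, and their difference was not tested. Nrp1 (ENSMUSG00000025810), which binds Sema3a and also the growth factor Vegfa, was at 53.7, 54.6 and 49.4 CPM in the wild type and at 64.8, 64.6 and 70.2 CPM in the double knockout. All double knockout libraries were higher. The fitted log2 fold change was 0.34 (SE 0.0606, edgeR adjusted p = 0.0233). Nrp1 is also expressed by blood vessel cells. The summed level of 8 endothelial markers was 98.7 to 111.2 CPM in the wild type and 103.0 to 121.1 CPM in the double knockout, with overlap, and none of the 8 was called. The part of vessel cells in the Nrp1 value was not tested.

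Nrp2 (ENSMUSG00000025969), the receptor for Sema3f, had the largest gap of all members between double knockout replicate 3 and the other double knockout libraries. It was at 213.1, 187.3 and 228.5 CPM in the wild type. In the double knockout it was at 238.1 and 245.4 CPM in replicates 1 and 2, above every wild-type library, and at 118.5 CPM in replicate 3, below every one. The log2 fold change over all 6 libraries was -0.06 (95% interval -0.60 to 0.47, edgeR adjusted p = 0.95). Without double knockout replicate 3 it was 0.21, with an adjusted p of 0.239. Plxnc1 and Sema5a were the other 2 members for which replicate 3 and the other 2 double knockout libraries lay on opposite sides of the wild type. Their log2 fold changes were -0.000529 and -0.06, and 0.10 and -0.12 without that library, with edgeR adjusted p of 0.502 and 0.269. There the gaps were smaller, with replicate 3 at 0.807 and 1.14 times the mean of the other double knockout libraries, against 0.490 times for Nrp2. In the same library the summed ganglionic eminence markers were at 1519 CPM, against 1289 and 1330 CPM in the other double knockout libraries, and the summed hypothalamic and diencephalic markers were at 204.1 CPM, against 251.6 and 256.8 CPM (without Otp, at 83.1 CPM, against 138.7 and 135.5 CPM). Their part in the Nrp2 value was not tested.

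**Figure D3:**
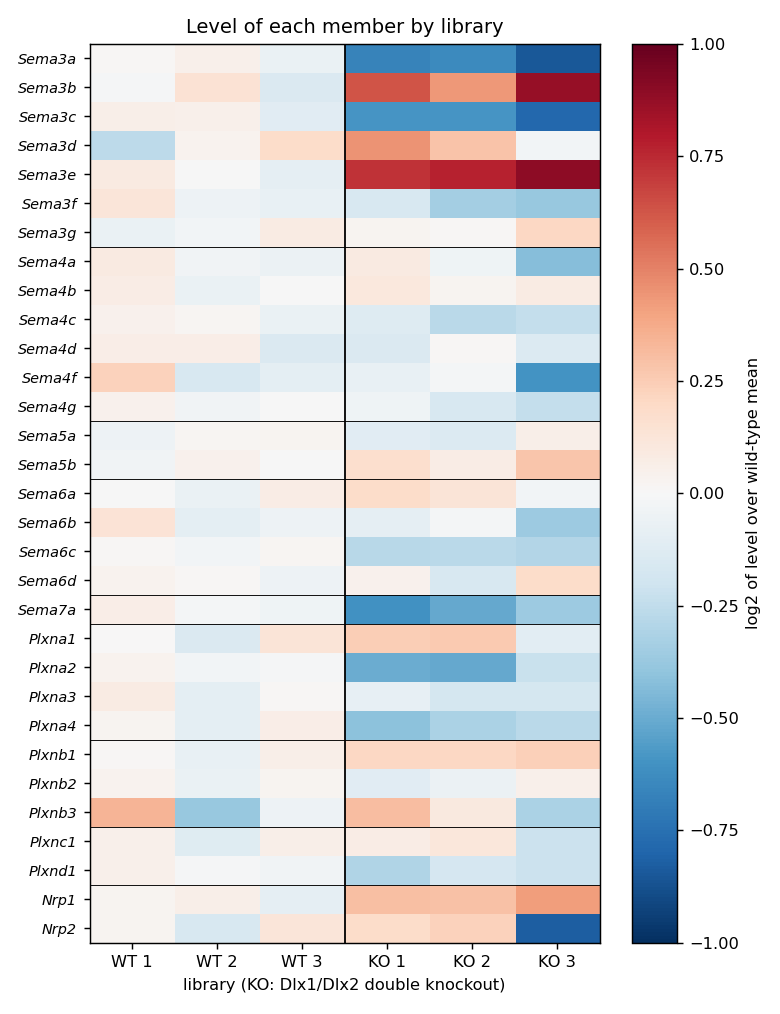
Level of each of the 31 genes (rows, by class) in each library (columns), as log2 of the level over the wild-type mean; red is higher and blue lower. Sema3a, Sema3c and Sema7a are lower and Sema3e is higher in all 3 double knockout libraries, while Nrp2 is higher in double knockout libraries 1 and 2 and at its lowest in library 3.

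Summed levels of ligands and of plexins were both lower in the double knockout. They are given without a test, because the classes were chosen. The 20 ligands summed to 166.6 ± 3.97 CPM per kb in the wild type and 151.8 ± 3.40 in the double knockout (SD, n = 3). The 9 plexins summed to 213.0 ± 9.54 and 198.6 ± 1.46, and the 2 neuropilins to 23.1 ± 1.51 and 23.7 ± 5.69. The plexin sums were only just separate, with the closest at 202.0 in wild-type replicate 2 and 199.7 in double knockout replicate 2. The neuropilin sum was 26.7, 27.3 and 17.2 CPM per kb in double knockout replicates 1 to 3, so replicates 1 and 2 were above the highest wild-type library, at 24.3, and replicate 3 was below them all. The log2 ratio of summed neuropilin CPM was 0.03 with replicate 3 and 0.22 without it. Ligands thus held 41.4% ± 1.11 of the family's level per kb in the wild type and 40.6% ± 0.729 in the double knockout, a difference within the spread of libraries. The makeup of each side differed between the genotypes. Class 3 went from 5.84% ± 0.339 to 4.77% ± 0.137 of the family, Sema7a from 2.44% ± 0.0884 to 1.87% ± 0.194 and A-type plexins from 30.4% ± 0.617 to 28.5% ± 0.501. B-type plexins went from 15.3% ± 0.234 to 17.3% ± 0.956. The order of levels across genes was nearly the same in both genotypes: the 6 highest genes per kb were plexins in each.

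**Figure D4:**
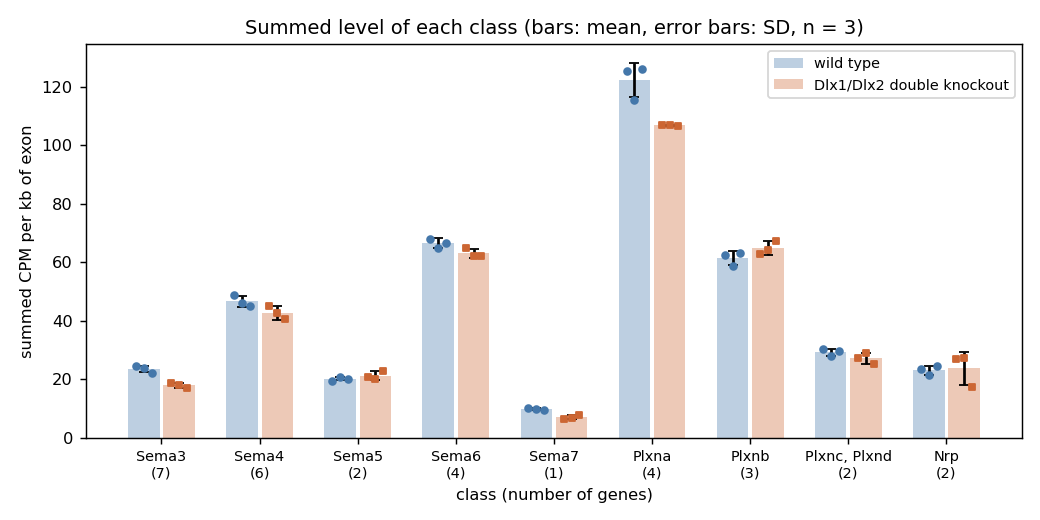
Summed level of each class in CPM per kb of exon (y axis from 0) by genotype; bars are means, error bars SD and points the 3 libraries, with the number of genes in parentheses. The class 3, class 7 and A-type plexin sums are lower in every double knockout library. So are those of classes 4 and 6, but only just: the closest libraries are at 45.15 and 45.11 for class 4 and at 64.72 and 64.71 for class 6. In CPM without division by length, the class 6 sums overlap. The neuropilin sum spreads widely in the double knockout, where Nrp2 differs between libraries.

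Beyond the family itself, 48 genes of the pathway were listed by role, and 47 were tested. Of these 47, 2 were called (4.26%, against 2.68% of all tested genes), 1 in each direction, and 15 had an unadjusted p under 0.05 (31.9%, against 13.3%). Their median log2 fold change was -0.0157. Pak3, a kinase that Rac activates downstream of guidance receptors, was at 320.1, 315.8 and 341.2 CPM in the wild type and at 661.4, 677.5 and 643.8 CPM in the double knockout. Every double knockout library was far above every wild-type one. Its log2 fold change of 1.02 (SE 0.0564, edgeR adjusted p = 4.57e-05) was larger than that of any of the 31 members. Cntn2, an adhesion protein of growing axons, fell from 318.7 ± 25.0 to 235.7 ± 12.3 CPM (SD, n = 3), a change of -0.43 on the log2 scale (SE 0.0695, edgeR adjusted p = 0.014). Cntn2 was not called without wild-type replicate 1, double knockout replicate 1 or double knockout replicate 2, which left Pak3 as the 1 called gene of the list. The gene left untested was Timd2, with no reads in the wild type and 4, 2 and 2 reads in the double knockout.

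Markers of cell types moved with the genotype as well. The 10 ganglionic eminence markers summed to 1648 to 1704 CPM in the wild type and 1289 to 1519 CPM in the double knockout, with 4 called lower and 3 higher. The 6 pan-neuronal markers summed to 5850 to 6339 CPM in the wild type and 4794 to 5500 CPM in the double knockout, and 1 of the 6 was called, lower. The 9 cortical excitatory markers summed to 967.4 to 983.4 and 740.4 to 758.8 CPM, with 1 called, lower. The 6 markers of radial glia and progenitors summed to 2023 to 2282 and 2424 to 2815 CPM, with none called. The 4 oligodendrocyte precursor markers, all called higher, summed to 64.0 to 65.4 and 124.3 to 165.0 CPM, and the 6 hypothalamic and diencephalic markers, 1 of them called higher, to 88.8 to 105.2 and 204.1 to 256.8 CPM. None of these 6 sums overlapped between genotypes. The hypothalamic and diencephalic sum was carried by Otp, which went from 9.44 to 118.4 CPM. Otp was singled out after its values were seen. Without it the sum overlapped, at 80.9 to 93.3 and 83.1 to 138.7 CPM, and double knockout replicate 3 was within the wild-type range. Of the 6 genes of that list, 5 were tested. No marker of these lists was at 0 in all libraries. Their part in the changes of semaphorins, plexins and neuropilins was not tested. The sums of pericyte, meningeal, microglial and blood markers overlapped, and none of their genes was called.

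The 5 calls other than Sema3a, Sema3c and Sema3e were less firm. Between 3 and 8 of the 31 genes were called when 1 library was left out: 3 without wild-type replicate 1 or double knockout replicate 1, 4 without wild-type replicate 3 or double knockout replicate 2, 5 without wild-type replicate 2 and 8 without double knockout replicate 3. Over all tested genes 634 were called with all libraries, and 309 to 749 with 1 left out. The lowest was without wild-type replicate 1, the highest without double knockout replicate 3. Y-linked genes were expressed in wild-type replicate 1 and double knockout replicates 2 and 3 (207.1 to 213.9 CPM) and at most at 0.171 CPM elsewhere. With their summed level as a covariate, 4 members and 359 of all tested genes were called. The direction of each of the 8 was kept in all of these fits.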

How the data were processed

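Per the labels' protocols, total RNA was extracted from frozen ganglionic eminences and made into stranded libraries after depletion of ribosomal RNA. The authors deposited raw read counts per gene, 1 column per library; per the submitters' processing notes, featureCounts and build GRCm39 were used. The aligner, the annotation release and the strand setting are not given in the sources used here. Genes were filtered with filterByExpr (minimum count 10, minimum total 15), scaled by TMM and tested with edgeR 4.0.16 in R 4.3.3 by the quasi-likelihood test (prior count 0.125), fitted on all 6 libraries and the whole table. Alternatives used DESeq2 1.42.0 and limma 3.58.1 (voom). Exon lengths and overlaps came from GENCODE M21, a release of another build, matched by Ensembl identifier for all 31 members and 94% of the table. The test was checked on simulated counts: over 23120 genes, 56.7%, 88.1% and 100% of genes changed 1.5-, 2- and 4-fold were recovered, and 7.39% of calls were false. Genes were named where called, where highest in their class or where few reads were seen, and pathway genes where called. The members and lists were chosen with earlier results of these data known.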

Additional observations from a re-analysis of the deposited data

How the results depend on the processing

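The 8 called members were the same with DESeq2 size factors, limma-voom and the replicate block. The pairing behind that block is not given by the labels: the deviations of libraries with 1 number correlated by -0.0233 on average when all tested genes entered, and by 0.128 among genes averaging 1 CPM or more, where each library correlated best with its own number. The block called 690 of all tested genes against 634, and 3 pathway genes, with Mical2 added. DESeq2 called 1135 of all genes, 11 members (adding Plxnb1, Plxnd1 and Sema3b) and 7 pathway genes. The Y-linked covariate left 359 genes and 4 members. An adjusted p under 0.01 left 275 genes, 4 members and 1 pathway gene. Leaving out 1 library gave 309 to 749 genes, 3 to 8 members and 1 to 3 pathway genes, with 309, 325 and 403 genes without wild-type replicates 1 to 3 and 380 and 402 without double knockout replicates 1 and 2. Total count scaling gave 390 genes higher and 256 lower, against 317 and 317. Class sums moved by less than their spread in all 96 alternatives run. For the fits that left out 1 of 3 libraries this says little. A group mean then moves by less than its SD in any case, so they could hardly come out otherwise. The spread used is the one between all libraries, so for neuropilins it includes double knockout replicate 3. Their log2 ratio ranged from -0.09 to 0.22. The 96 include sums that share genes, and the neuropilin sum more than once. With 1 library left out, adjusted p in edgeR reached 0.0838 for Nrp1, 0.17 for Plxna2, 0.147 for Plxna4, 0.0649 for Sema6c and 0.0685 for Sema7a. The cause was not tested for any of these. Plxnb3, Sema3d and Sema3b had the fewest reads of the members, and depth limits what can be said of them.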
